A study of Mus musculus with 12 samples.

Results

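The levels of 9 genes for water and ion transport were compared in colonic epithelial cells of mice with and without epithelial Tfeb. The set was chosen by gene symbol and makes up 9 of the 47632 genes in each table. It holds 3 carbonic anhydrases (Car1, Car2 and Car4), 2 aquaporins (Aqp8 and Aqp4), 2 ATPase subunits (Atp1b1 and Atp12a) and 2 ion channel genes (Scnn1a and Cftr). Without epithelial Tfeb, Aqp8 was 6.56-fold lower and Car4 2.93-fold lower before injury, and Cftr and Atp12a were at least 2-fold higher. Of all genes counted, 16.1% were at least 2-fold lower then and 13.5% higher. On Day 4 of colitis Car2, Aqp8, Aqp4, Cftr and Atp12a were at least 2-fold higher and Scnn1a was 3.01-fold lower. Of all genes counted on Day 4, 25.6% were higher and 26.1% lower. Cftr, Atp12a and Scnn1a had low levels, and Cftr was high enough to count only in mice without epithelial Tfeb. Car1 and Atp1b1 stayed within 2-fold between the genotypes on all 3 days.

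The study asked which genes depend on TFEB in the epithelium during colitis caused by dextran sodium sulfate (DSS), a polymer that injures the colonic lining when given in drinking water. RNA was measured in isolated colonic epithelial cells of 12 C57/BL6 mice, in 6 groups of 2 animals. Tfeb flox/flox mice, which carry a Tfeb allele flanked by recombination sites and are labelled WT, were set against Tfeb ΔIEC mice, labelled KO, in which Cre from the villin promoter deletes that allele in the intestinal epithelium. Both genotypes therefore carry the floxed allele, and Tfeb in other cells of the colon is not a target of this Cre. The animals were 10 or 12 weeks old on Day 0, 12 weeks old on Day 4 and 10 weeks old on Day 11. Every sample carries a label of 2.5% DSS (the study's methods give a slightly lower concentration), but Day 0 is the basal time point of the design. DSS had been replaced by water before Day 11.

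Each genotype has 1 value per gene and day, the authors' FPKM (fragments per kilobase of transcript, scaled to the mapped fragments of the library) pooled over 2 animals. The spread between animals is therefore unknown, no difference below has a replicate check or a test, and the order of nearby levels cannot be judged against error. The read depth behind a value is also unknown. A difference is given on the log2(FPKM + 1) scale as Tfeb ΔIEC minus Tfeb flox/flox, and genes were counted as higher or lower where it reached 1, a 2-fold difference on that scale. This scale understates the fold of genes near 1 FPKM. The 3 days were normalized separately, so levels on different days are set side by side only.

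The colon absorbs most of the water that reaches it, and water follows sodium and chloride across the epithelium. Carbonic anhydrases make the protons and bicarbonate that apical exchangers trade for sodium and chloride. The sodium pump on the basolateral side keeps cell sodium low, apical sodium channels let sodium in, CFTR lets chloride out, and aquaporins are pores for water.

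Tfeb itself was checked first. It was listed at 0.901 FPKM in Tfeb flox/flox and 0.185 FPKM in Tfeb ΔIEC on Day 0. On Day 4 the values were 1.08 and 0 FPKM, and on Day 11 they were 1.18 and 0 FPKM. Tfeb was thus lower in Tfeb ΔIEC on each day, from a level near 1 FPKM. All 8 epithelial marker genes had at least 1 FPKM on each day, with sums of 5620 to 10374 FPKM over the groups, of which Krt19 was the largest share. On Day 4 Cdh1 (24.5 against 164 FPKM) and Vil1 (30.6 against 224 FPKM) were at least 2-fold higher in Tfeb ΔIEC, Cdx1 (25.9 against 6.98 FPKM) was lower, and the other 5 were within 2-fold. The part of this in the values of the transport genes was not tested. The 12 immune markers summed to 3.06 to 9.75 FPKM, with Cd68 and S100a9 listed at 0 in every group, and the 12 stromal, endothelial and glial markers summed to 2.44 to 6.16 FPKM, with Col1a2, Des and Myh11 among those listed at 0 in every group.

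On Days 4 and 11, 14.3% of the 11746 genes above 0 in both Tfeb flox/flox tables had exactly the same FPKM, as had 10.2% of 12826 genes in Tfeb ΔIEC. Between Days 0 and 4 no gene above 0 had the same FPKM in either genotype. The transport genes differed between Days 4 and 11 by at most 1.16-fold in Tfeb flox/flox (Cftr) and 1.09-fold in Tfeb ΔIEC (Car2). None was identical. Day 11 values are given beside those of Day 4 and are not counted as a separate check of them.

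The promoters of Aqp8 and Car4 are shown because these were the genes of the 9 at least 2-fold lower on Day 0. TFEB is a basic helix-loop-helix factor, and factors of this class bind the E-box core CACGTG, as background. RefSeq (GRCm38.p6) gave a start for 4 of the 9 genes, Aqp8, Atp1b1, Car4 and Cftr. The sequences run 5′ to 3′ on the + strand from 250 bases before the start to 50 after it, at chr7:123462044-123462343 for Aqp8 and chr11:84957504-84957803 for Car4. Capitals mark CACGTG.
Aqp8: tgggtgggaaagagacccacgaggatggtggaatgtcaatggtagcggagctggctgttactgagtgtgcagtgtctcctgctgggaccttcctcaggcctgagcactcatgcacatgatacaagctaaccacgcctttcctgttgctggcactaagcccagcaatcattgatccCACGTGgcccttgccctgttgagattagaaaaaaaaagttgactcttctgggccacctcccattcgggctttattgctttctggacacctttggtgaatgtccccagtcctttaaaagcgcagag
Car4: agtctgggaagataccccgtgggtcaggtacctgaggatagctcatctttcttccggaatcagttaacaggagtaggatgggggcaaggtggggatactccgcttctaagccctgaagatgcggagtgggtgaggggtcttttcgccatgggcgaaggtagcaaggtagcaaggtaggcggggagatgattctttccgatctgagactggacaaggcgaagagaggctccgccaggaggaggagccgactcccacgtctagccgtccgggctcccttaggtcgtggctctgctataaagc
CACGTG, a palindrome and so the same on both strands, occurred once in the Aqp8 promoter, with its first base 75 bases before the start. It did not occur in the other 3 windows, and 7.15% of 32851 promoters of the same length hold it. The longer TCACGTGA, which contains CACGTG, was in none of the 4 windows and in 0.974% of all promoters. TATAAA, searched on both strands, was in the Car4 window and in 13.6% of all promoters. In Car4 it lies at the 3′ end of the window, after the start and not before it. These matches describe letters, and binding was not measured.

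**Figure D1:**
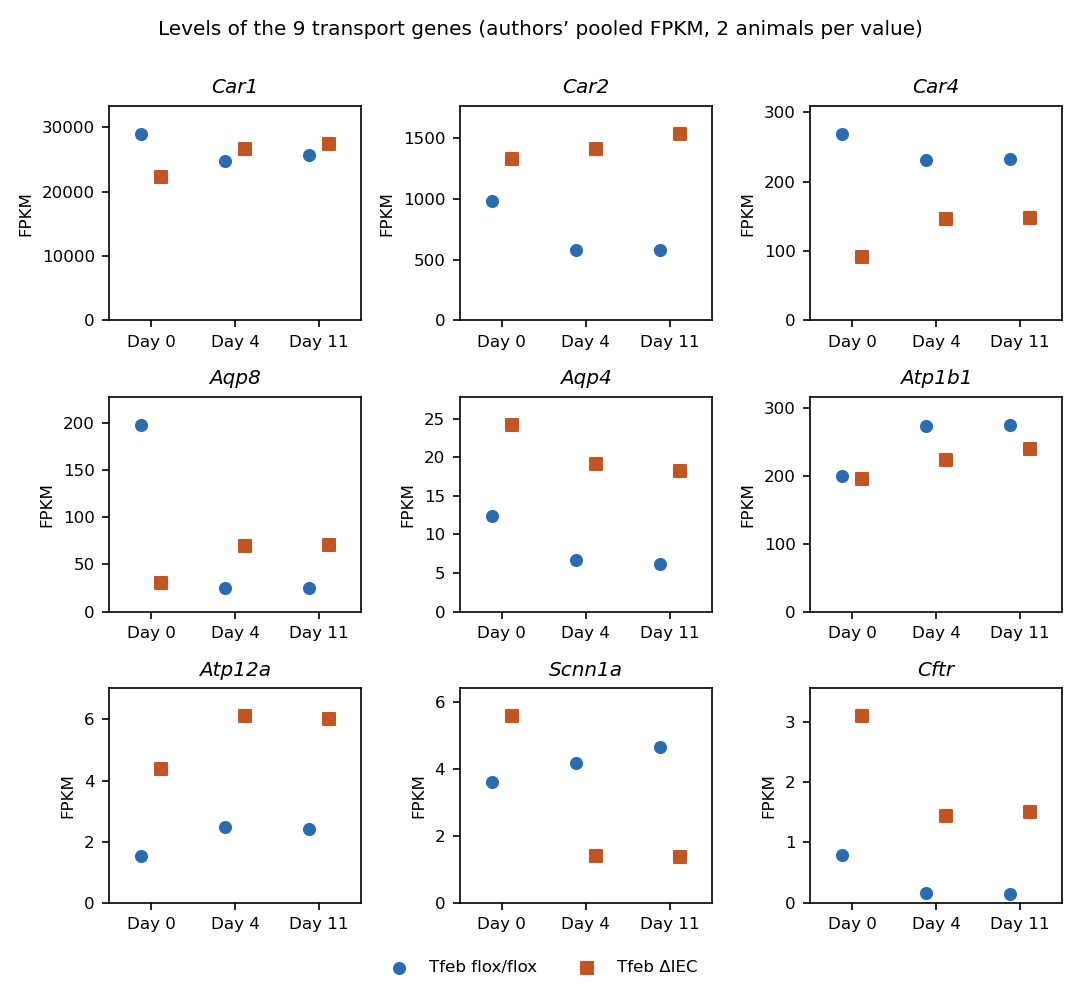
Authors' pooled FPKM of each of the 9 transport genes on Days 0, 4 and 11, with circles for Tfeb flox/flox and squares for Tfeb ΔIEC and a separate linear axis from 0 for each gene. The order of genotypes turns over between Days 0 and 4 for Aqp8, Scnn1a and Car1, for Aqp8 at 198 against 30.1 FPKM on Day 0 and 25.3 against 69.3 FPKM on Day 4.

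Aqp8 (ENSMUSG00000030762.11, chr7:123462291-123468004, + strand, mm10) encodes an aquaporin of the colonic surface epithelium. On Day 0 it was at 198 FPKM in Tfeb flox/flox and 30.1 FPKM in Tfeb ΔIEC. On Day 4 the values were 25.3 and 69.3 FPKM, and on Day 11 they were 25.1 and 70.9 FPKM. The highest of the 6 values was that of untreated Tfeb flox/flox and the lowest those of Tfeb flox/flox on Days 4 and 11, with Tfeb ΔIEC between them on every day. The days were normalized separately, so this order across days only lists the values. The log2 difference was -2.67 on Day 0, lower than all but 1.68% of the genes with at least 1 FPKM in either genotype. It was 1.42 on Day 4 and 1.46 on Day 11, FPKM ratios of 2.74 and 2.82. By rank of FPKM within a group, which does not depend on scaling, Aqp8 stood at place 423 in Tfeb flox/flox against 1233 in Tfeb ΔIEC on Day 0. On Day 4 it stood at 1485 and 744.

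Aqp4 (ENSMUSG00000024411.9, chr18:15389496-15410982, - strand) encodes a water channel of basolateral membranes. On Day 0 it was at 12.4 FPKM in Tfeb flox/flox and 24.2 FPKM in Tfeb ΔIEC. The values were 6.67 and 19.1 FPKM on Day 4 and 6.20 and 18.2 FPKM on Day 11. Aqp4 was thus higher in Tfeb ΔIEC on all 3 days, but on Day 0 its log2 difference of 0.91 did not reach 2-fold. On Days 4 and 11 the differences were 1.39 and 1.42, which are 2.86-fold and 2.94-fold in FPKM.

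The balance between the 2 aquaporins differed most on Day 0. Aqp8 was 15.9 times Aqp4 in FPKM in Tfeb flox/flox and 1.25 times in Tfeb ΔIEC. On Day 4 the ratio was 3.80 in Tfeb flox/flox against 3.64 in Tfeb ΔIEC, and on Day 11 it was 4.05 and 3.89. Both aquaporins were thus higher in Tfeb ΔIEC by nearly the same factor on Days 4 and 11, while on Day 0 they differed in opposite directions. Aqp8 made up 87.6% of the summed FPKM of the aquaporin family in untreated Tfeb flox/flox and 37.2% in untreated Tfeb ΔIEC. On Day 4 it made up 55.8% and 68.5%.

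Car1 (ENSMUSG00000027556.15, chr3:14766216-14808368, - strand) encodes cytosolic carbonic anhydrase I, an abundant enzyme of colonocytes. It was at 28996 FPKM in Tfeb flox/flox and 22335 FPKM in Tfeb ΔIEC on Day 0. The values were 24745 and 26614 FPKM on Day 4 and 25649 and 27347 FPKM on Day 11. Car1 was among the 12 highest genes of every group, at places 4 to 12. It alone took 1.69% to 3.31% of the summed FPKM of a group, and 93.9% to 96.8% of that of the carbonic anhydrase family. The log2 differences of -0.38, 0.11 and 0.092 on Days 0, 4 and 11 were within 2-fold.

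Car2 (ENSMUSG00000027562.12, chr3:14886273-14900770, + strand) encodes the fast cytosolic carbonic anhydrase II. It was at 980.3 FPKM in Tfeb flox/flox and 1331 FPKM in Tfeb ΔIEC on Day 0. The values were 579.7 and 1413 FPKM on Day 4 and 581 and 1538 FPKM on Day 11. Tfeb ΔIEC was higher on each day, by 0.44 on the log2 scale on Day 0, 1.28 on Day 4 and 1.40 on Day 11. The FPKM ratios on Days 4 and 11 were 2.44 and 2.65. Car2 stood at place 285 in Tfeb flox/flox against 63 in Tfeb ΔIEC on Day 4.

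Car4 (ENSMUSG00000000805.18, chr11:84957786-84966044, + strand) encodes carbonic anhydrase IV, which is anchored on the outer face of the apical membrane. It was at 269 FPKM in Tfeb flox/flox and 91.9 FPKM in Tfeb ΔIEC on Day 0. The values were 232 and 147 FPKM on Day 4 and 233 and 147 FPKM on Day 11. Car4 was lower in Tfeb ΔIEC on each day, with log2 differences of -1.54, -0.66 and -0.66, of which the first reached 2-fold. Divided by the column sums, the differences on Days 4 and 11 turned to 0.18 and 0.17, so their sign depends on the scaling. That division also moved the median of all genes, to 0.75 and 0.77. Relative to this median Car4 stayed lower, at -0.58 and -0.60.

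Car1, Car2, Car3 and Car13 lie within 259 kb of chromosome 3, and Car4 lies on chromosome 11. Within this cluster, Car1 and Car2 differed in how they compared between genotypes. Car1 was 29.6 times Car2 in FPKM in Tfeb flox/flox and 16.8 times in Tfeb ΔIEC on Day 0. The ratio was 42.7 and 18.8 on Day 4, and 44.1 and 17.8 on Day 11. The ratio of cytosolic Car2 to membrane-anchored Car4 went the other way, from 3.64 in Tfeb flox/flox to 14.5 in Tfeb ΔIEC on Day 0. It was 2.50 and 9.61 on Day 4, and 2.49 and 10.4 on Day 11. Such ratios within a group do not depend on how its column was scaled, and both had the same order of genotypes on all 3 days.

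**Figure D2:**
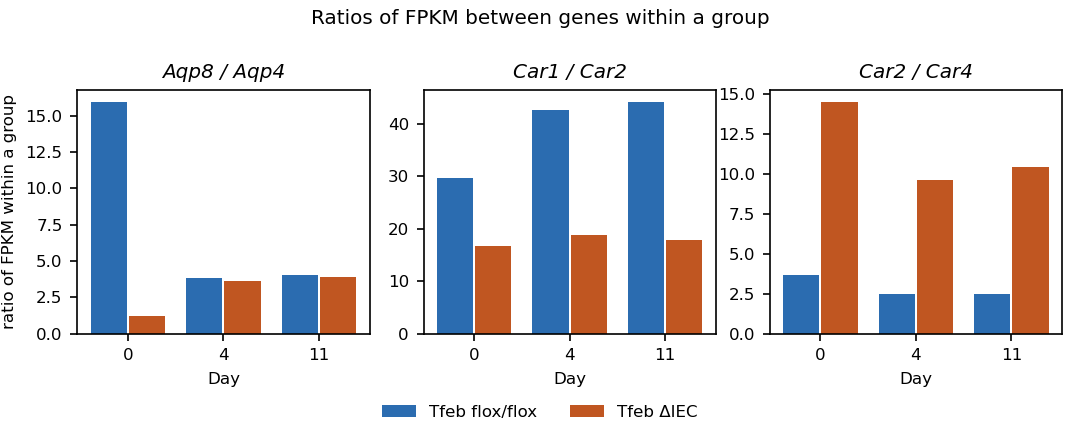
Ratios of FPKM between pairs of transport genes within each group, with blue bars for Tfeb flox/flox and orange bars for Tfeb ΔIEC on Days 0, 4 and 11 and axes from 0. The Car2 to Car4 ratio is higher and the Car1 to Car2 ratio is lower in Tfeb ΔIEC on each day, whereas the Aqp8 to Aqp4 ratio stands apart on Day 0, at 15.9 against 1.25.

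Atp1b1 (ENSMUSG00000026576.12, chr1:164437109-164458355, - strand) encodes the beta subunit of the sodium pump, which brings the catalytic subunit to the basolateral membrane. It was at 199.9 FPKM in Tfeb flox/flox and 195 FPKM in Tfeb ΔIEC on Day 0. The values were 274 and 224 FPKM on Day 4 and 275 and 239.8 FPKM on Day 11. The log2 differences of -0.032, -0.29 and -0.20 were within 2-fold, and those of Days 4 and 11 became 0.54 and 0.63 after division by the column sums. That division moved the median of all genes to 0.75 and 0.77, and relative to it Atp1b1 was at -0.21 and -0.14. Of the exonic bases of Atp1b1, 18.7% overlap Nme7 on the other strand, and since library strand is not given in the sources used here, reads from the 2 genes could not be told apart there.

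Atp12a (ENSMUSG00000022229.2, chr14:56365068-56388550, + strand) encodes the catalytic subunit of the colonic proton and potassium pump, which takes up potassium at the apical membrane. It was at 1.53 FPKM in Tfeb flox/flox and 4.38 FPKM in Tfeb ΔIEC on Day 0. The values were 2.47 and 6.11 FPKM on Day 4 and 2.43 and 6.03 FPKM on Day 11. Tfeb ΔIEC was higher on all 3 days, with log2 differences of 1.09, 1.03 and 1.04, just past 2-fold. Centred on the median of all genes, those of Days 4 and 11 were 0.98 and 0.96, within 2-fold. The overlap with the antisense gene Gm10873 covers 13.9% of its exonic bases.

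Scnn1a (ENSMUSG00000030340.16, chr6:125320659-125344943, + strand) encodes the alpha subunit of the epithelial sodium channel, whose full activity needs all its subunits. It was at 3.62 FPKM in Tfeb flox/flox and 5.58 FPKM in Tfeb ΔIEC on Day 0. The values were 4.19 and 1.39 FPKM on Day 4 and 4.64 and 1.37 FPKM on Day 11. Scnn1a was the 1 gene of the 9 at least 2-fold lower after Day 0, with log2 differences of -1.12 and -1.25 on Days 4 and 11. On Day 0 its difference was 0.51. After division by the column sums the differences were -0.54 and -0.67, the same direction but within 2-fold. That division moved the median of all genes to 0.75 and 0.77, and relative to it Scnn1a was at -1.29 and -1.45. The beta subunit Scnn1b was below 0.5 FPKM in every group, at 0.206 and 0.453 FPKM on Day 4, and the gamma subunit Scnn1g was listed at 0 in all 6 groups.

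Cftr (ENSMUSG00000041301.15, chr6:18170687-18322768, + strand) encodes the apical chloride channel of secretion. It was at 0.799 FPKM in Tfeb flox/flox and 3.09 FPKM in Tfeb ΔIEC on Day 0. The values were 0.169 and 1.44 FPKM on Day 4 and 0.145 and 1.50 FPKM on Day 11. Cftr was higher in Tfeb ΔIEC on all 3 days, with log2 differences of 1.18, 1.06 and 1.13. Its FPKM ratios of 3.86, 8.53 and 10.4 rest on values below 1 FPKM in Tfeb flox/flox, and it reached 1 FPKM through the Tfeb ΔIEC value alone on each day. The antisense gene Gm15592 covers 1.66% of its exonic bases.

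**Figure D3:**
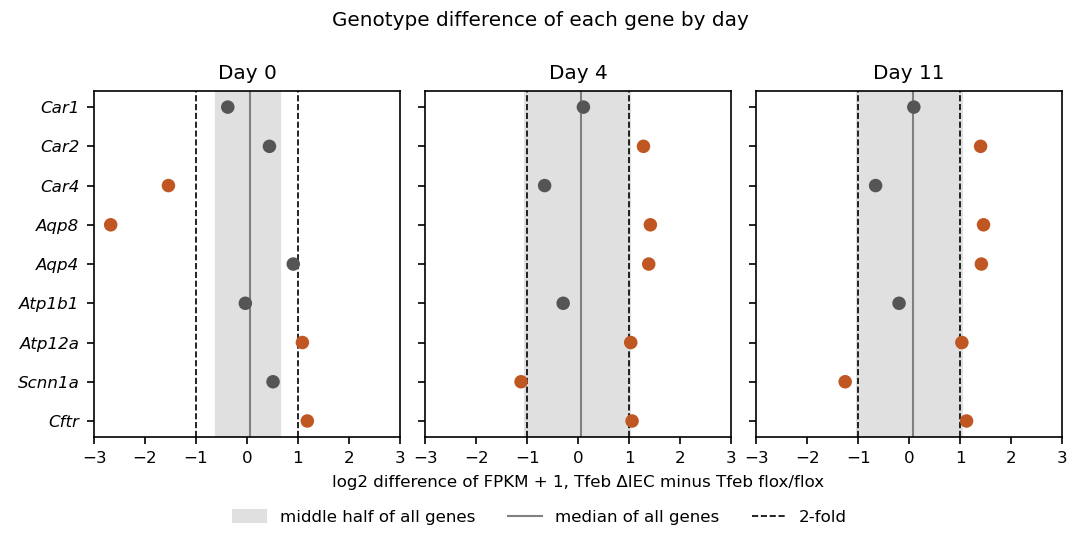
Log2 difference of FPKM + 1, Tfeb ΔIEC minus Tfeb flox/flox, of the 9 transport genes on each day, with orange points at or past 2-fold (dashed lines), the median of all genes with at least 1 FPKM as a grey line and their interquartile range as a grey band. On Day 0, Aqp8 and Car4 lie to the left of the band and Cftr, Atp12a and Aqp4 to the right, and on Days 4 and 11 Scnn1a lies to the left and Aqp8, Aqp4, Car2 and Cftr to the right, with Atp12a at the right edge.

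Counted together, all 9 genes had at least 1 FPKM in a genotype on each day, Cftr through Tfeb ΔIEC alone. On Day 0, 2 of the 9 were at least 2-fold lower in Tfeb ΔIEC (Aqp8 and Car4), where 16.1% of 9993 genes were. On the same day 2 were at least 2-fold higher (Cftr and Atp12a), where 13.5% of all genes were. On Day 4, 1 of the 9 was lower (Scnn1a) against 26.1% of 9371 genes, and 5 were higher (Aqp8, Aqp4, Car2, Cftr and Atp12a) against 25.6%. On Day 11 the same 1 gene was lower and the same 5 were higher, against 25.7% and 26.1% of 9365 genes. On Days 0, 4 and 11 the 9 genes had median log2 differences of 0.44, 1.03 and 1.04, beside 0.062, 0.057 and 0.077 for all genes. These medians became 0.095, 0.35 and 0.35 with the median of genes of like length subtracted, 0.30, 0.32 and 0.34 with a pseudocount of 5 FPKM, and 0.20, 0.57 and 0.56 without Cftr. With such shares of all genes past 2-fold in each direction on Days 4 and 11, a gene past it is common in these tables. Of the 9, only Aqp8 was at least 2-fold different in opposite directions on Days 0 and 4, and Scnn1a and Car1 had opposite signs with a difference within 2-fold on at least 1 of these days.

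The summed FPKM of all genes differed between genotypes on Day 4, at 1464720 in Tfeb flox/flox against 820344 in Tfeb ΔIEC. Dividing by it moved the median of all genes from 0.057 to 0.75 on Day 4 and from 0.077 to 0.77 on Day 11. It also moved the shares of all genes lower and higher on Day 4 to 15.6% and 42.7%. Relative to that median, Aqp8 (1.48), Aqp4 (1.40), Car2 (1.36), Atp12a (0.94), Cftr (0.65) and Car1 (0.19) were higher on Day 4, and Scnn1a (-1.29), Car4 (-0.58) and Atp1b1 (-0.21) were lower.

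The genotype difference also moved with transcript length. On Day 4 the median log2 difference was -1.53 for the shortest and 0.50 for the longest of 5 equal bins of transcript length, and on Day 0 it was -0.83 and 0.40. The median transcripts of the transport genes ran from 1187 nt (Car1) to 4341 nt (Cftr). Genes as long as Cftr and Atp12a had medians of 0.56 and 0.68 on Day 4, and relative to these the 2 genes were higher by 0.50 and 0.35. Scnn1a, at -1.12, lay below the median of 0.60 for genes of its length. Aqp8 and Aqp4 kept differences of 1.41 and 1.47 relative to genes of their length on Day 4, and on Day 0 Aqp8 kept -2.63 and Car4 -1.46. The length of Aqp4, 1281.5 nt, is the median of 8 annotated transcripts, so its value depends on that choice. Atp1b1 came to -0.99 and Car2 to 0.98 on Day 4. The part of length in these differences was not tested.

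**Figure D4:**
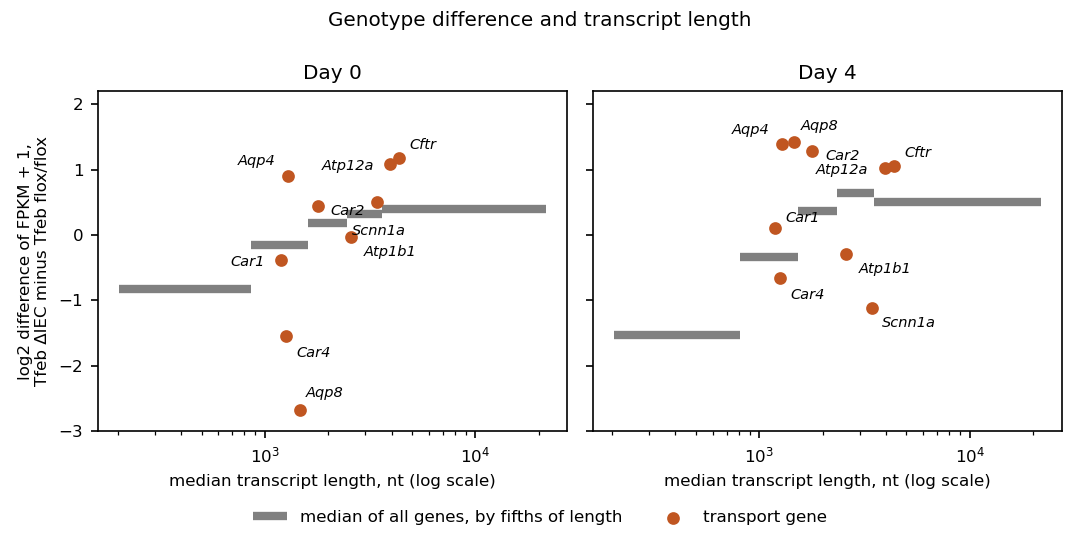
Log2 difference of FPKM + 1, Tfeb ΔIEC minus Tfeb flox/flox, on Days 0 and 4 against median transcript length in nt (log axis), with points for the 9 transport genes and bars for the median of all genes in each of 5 equal bins of length. On Day 4, Cftr and Atp12a sit close above the bar of their bin, Aqp8, Aqp4 and Car2 well above theirs and Scnn1a below.

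Markers of other epithelial cells moved with genotype as well. Of 8 goblet cell markers, 6 were at least 2-fold lower and 2 (Muc2 and Clca1) at least 2-fold higher in Tfeb ΔIEC on Day 4, and the list summed to 153674 FPKM in Tfeb flox/flox and 23260 FPKM in Tfeb ΔIEC. On Day 0, 3 were lower and 1 higher, with sums of 41446 and 25021 FPKM. Of 11 colonocyte markers, 3 were lower and 4 higher on Day 0, and 2 were lower and 5 higher on Day 4. The colonocyte list summed to 28835 and 12390 FPKM on Day 0 and to 61932 and 27925 FPKM on Day 4, lower in Tfeb ΔIEC. Guca2a (33249 against 9202 FPKM on Day 4) and Lypd8 (26740 against 14731 FPKM) held most of these sums on both days. The median log2 difference of the list went the other way, at 0.12 on Day 0 and 0.84 on Day 4. Krt20 (101 against 931 FPKM), Slc26a2 (13.02 against 266 FPKM) and Mep1a (4.95 against 52.2 FPKM) were higher on Day 4. Of 7 small-intestinal enterocyte and Paneth cell markers with at least 1 FPKM, 4 were lower and 1 higher on Day 0, when Aqp8 and Car4 were lower, and 2 were lower and 3 higher on Day 4. The list of 11 summed to 1941 FPKM in Tfeb flox/flox and 914.8 FPKM in Tfeb ΔIEC on Day 0 and to 2492 and 824 FPKM on Day 4. Fabp2 alone made up most of the Day 0 sums, at 1882 against 891 FPKM. Fabp6 was at 18.8 against 1.74 FPKM on Day 0, and Defa24, which has near-identical copies, was at 29.6 against 0 FPKM on Day 0 and 1610 against 3.18 FPKM on Day 4. Without Defa24 the Day 4 sums were 882 and 821 FPKM. Slc5a1 was higher on both days, at 5.48 against 18.7 FPKM and 2.76 against 13.8 FPKM, and Alpi and Apob were higher on Day 4. Lct, Apoa4 and Mmp7 were listed at 0 in every group. For all genes the shares lower and higher were 16.1% and 13.5% on Day 0 and 26.1% and 25.6% on Day 4. Fewer cells of a type and less RNA per cell cannot be told apart in these bulk samples. The part of cell makeup in the values of the transport genes was not tested.

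Related transport genes were read from 7 lists of 84 genes in all, of which 82 were in the tables. On Day 0, 43 had at least 1 FPKM in either genotype, with 2 lower (4.65%), 5 higher (11.6%) and a median log2 difference of 0.22, beside 16.1%, 13.5% and 0.062 for all genes. That median became -0.088 with the median of genes of like length subtracted. On Day 4, 42 had, with 5 lower (11.9%), 19 higher (45.2%) and a median of 0.82, beside 26.1%, 25.6% and 0.057 for all genes. The Day 4 median became 0.40 with the median of genes of like length subtracted and 1.52 with column sums. Of the 19, 4 (Aqp1, Atp1b3, Clca4b and Nedd4l) reached 1 FPKM through Tfeb ΔIEC alone, so these counts and the median describe the genes that passed and support nothing further. The counts of the single lists below are to be read against the same shares of all genes on Day 4, 26.1% lower and 25.6% higher. On Day 11, 6 of 42 were lower and 18 higher, with a median of 0.82 that became 0.36 and 1.48 under the same changes.

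Among the carbonic anhydrases, the hypoxia-linked Car9 and the membrane enzyme Car12 were higher on Day 4, at 8.17 against 27.7 FPKM and 16.6 against 41.6 FPKM. Car8 was also higher, at 3.45 against 11.5 FPKM, and 1 of the 4 members with at least 1 FPKM was within 2-fold. On Day 0 the same 3 genes were within 2-fold. Of the remaining aquaporins, 2 of 10 had at least 1 FPKM. Aqp1 was higher on each day, at 4.26 and 14.1 FPKM on Day 0, and Aqp11 was within 2-fold.

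Among pump subunits on Day 4, Atp1b3, another beta subunit, was higher at 0.636 against 7.25 FPKM, and 2 of the 4 genes with at least 1 FPKM were lower. These were the small pump regulators Fxyd3, at 192 against 40.6 FPKM, and Fxyd4, at 7.56 against 1.61 FPKM. Fxyd4 was higher on Day 0, at 1.44 against 5.38 FPKM. Of 7 sodium channel regulators, 4 were higher (57.1%, beside 25.6% of all genes) and none lower by 2-fold on Day 4. Sgk1, the aldosterone-induced kinase that keeps the channel at the membrane, was at 1.99 against 18.3 FPKM, and the proteases St14 and Tmprss4 were at 18.8 against 57.6 FPKM and 13.8 against 41.4 FPKM. The other of the 4, Nedd4l, was at 0.270 against 1.80 FPKM and reached 1 FPKM through Tfeb ΔIEC alone. Channel activity was not measured. The protease Prss8 and Hsd11b2, which breaks down glucocorticoids, were within 2-fold on each day, at 10.1 against 5.40 FPKM and 65.8 against 97.9 FPKM on Day 4. On Day 0, when Scnn1a was within 2-fold, Sgk1 was also higher, at 12.5 against 31.1 FPKM.

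Of 12 chloride channel genes and CFTR regulators on Day 4, 3 were lower (25%) and 5 higher (41.7%), beside 26.1% and 25.6% of all genes. Guanylate cyclase C, the receptor that activates CFTR through cyclic GMP, is encoded by Gucy2c, which was at 1.95 against 31.9 FPKM. The genes of its peptide ligands were lower, Guca2a at 33249 against 9202 FPKM and Guca2b at 63.5 against 8.75 FPKM. On Day 0 Gucy2c was at 9.34 against 34.0 FPKM and Guca2a at 11946 against 4379 FPKM. Guca2a has a median transcript of 594 nt and Gucy2c one of 3911 nt, in the shortest and longest length bins, whose medians were -1.53 and 0.50 on Day 4 and -0.83 and 0.40 on Day 0. Beside these the log2 differences of Guca2a were -1.85 and -1.45 and those of Gucy2c 3.48 and 1.76. Clca4a, of the calcium-activated chloride channel regulator family, was at 2.11 against 63.9 FPKM on Day 4, and Clca1 was at 432 against 1298 FPKM. The scaffold gene Slc9a3r1 was also higher, at 30.6 against 72.4 FPKM. Clca3b and the calcium-activated channel gene Ano1 were within 2-fold, at 6.32 against 12.2 FPKM and 3.96 against 5.20 FPKM.

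Of 8 electroneutral transporters on Day 4, 3 were higher (37.5%, beside 25.6% of all genes) and none lower by 2-fold. Slc26a3, the apical chloride and bicarbonate exchanger, was at 33.3 FPKM in Tfeb flox/flox and 271 FPKM in Tfeb ΔIEC. The sodium and proton exchanger Slc9a2 was at 2.02 against 20.5 FPKM. The anion exchanger Slc4a2 was within 2-fold, at 12.97 against 23.97 FPKM. On Day 0 Slc26a3 and Slc9a2 were within 2-fold on the log2(FPKM + 1) scale, with differences of 0.38 and 0.90, at 85.8 against 112 FPKM and 5.18 against 10.5 FPKM. Of 5 potassium channel genes on Day 4, Kcnk1 and Kcnq1 were higher, at 7.01 against 40.5 FPKM and 3.54 against 8.90 FPKM. Kcne3, a partner of Kcnq1, was at 95.8 against 103 FPKM and Kcnn4 at 5.84 against 5.19 FPKM, both within 2-fold.

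**Figure D5:**
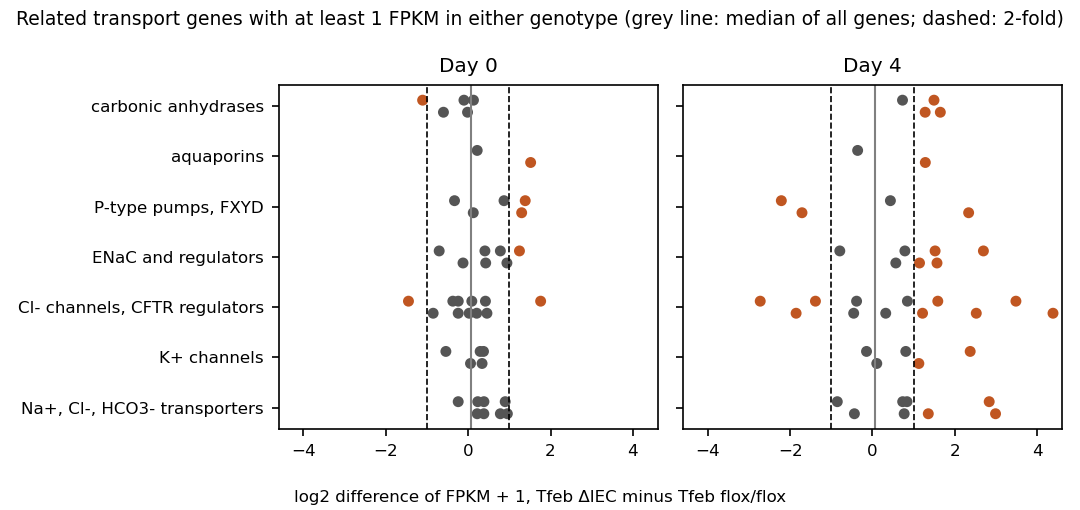
Log2 difference of FPKM + 1, Tfeb ΔIEC minus Tfeb flox/flox, of related transport genes with at least 1 FPKM in either genotype on Days 0 and 4, by list, with orange points at or past 2-fold (dashed lines) and the median of all genes as a grey line. On Day 0, 5 genes lie to the right of 2-fold and 2 to the left, and on Day 4 these numbers are 19 and 5.

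The genes with the most similar pattern to Car1, Car2, Car4, Aqp8 and Aqp4 were found by the root mean square difference of centred log2(FPKM + 1) values over the 6 groups, among 3713 genes that reached 10 FPKM. Aqp4 was closest to Txndc5 (0.044), Car2 to Nkiras2 (0.057), Car1 to Rer1 (0.062) and Car4 to Golt1a (0.099). The next 2 genes in likeness were RP24-215A14.6 and Entpd6 for Aqp4, Chmp1a and Ap2m1 for Car2, Tubb4b-ps1 and Coq7 for Car1, and Nudt2 and Dohh for Car4. Aqp8 had no gene as close, its nearest being Eif1ax at 0.28, with 13.3 and 2.83 FPKM on Day 0 and 1.75 and 4.12 FPKM on Day 4, followed by Gm42457 and Gm12155. The 6 values include the similar Days 4 and 11, and likeness over them is a description only.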

How the data were processed

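RNA of isolated colonic epithelial cells was made into full-length cDNA by a variant of SmartSeq2 and sequenced. Per the submitters' processing notes, the authors aligned reads to mm10 with TopHat2 2.0.14 and compared genotypes with Cuffdiff 2.1.1. The annotation release is not given in the sources used here. The deposited tables, 1 per day, hold 1 FPKM value per genotype, pooled by the authors over 2 animals. They also hold the authors' fold changes, p-values and q-values, which were not used.

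Differences were computed as log2 of FPKM + 1, and genes with at least 1 FPKM in either genotype formed the background. With 1 pooled value per group no test was run, and depth is unknown, so no interval is given. All 9 genes are described on each day. From the 7 lists of related genes, those with at least 10 FPKM in any group and partner subunits are named. Fxyd4, Atp1b3, Nedd4l and Clca4b lie below that level and were named after their values were seen, as were the cell type markers. For likeness, the 3 nearest genes are named for each transport gene with at least 10 FPKM except Atp1b1. Some list genes and their ratios are not reported here. The genes and lists were chosen with earlier results of these data known. Transcript lengths came from GENCODE M21 and promoters from RefSeq. Python 3.11.15, pandas 2.3.3 and numpy 2.4.6 were used, and the computation was tested on simulated data. The alternatives tried were pseudocounts of 0.1 and 5, column sums, median centring, length, a 4-fold threshold and other FPKM filters. The medians of the 9 genes under these settings and without Cftr, and the marker sums without Defa24, were added after seeing the data.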

Additional observations from a re-analysis of the deposited data

Results flagged for a closer look

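Aqp8 was singled out because its genotype difference pointed in opposite directions on different days. On Day 0 the log2 difference of Tfeb ΔIEC minus Tfeb flox/flox was -2.67, from 30.1 against 198 FPKM. On Day 4 it was 1.42, from 69.3 against 25.3 FPKM, and on Day 11 it was 1.46, from 70.9 against 25.1 FPKM. The difference between days was not tested, because each genotype has 1 pooled value per day. Days 4 and 11 share many identical values over all genes and are not counted as 2 separate sightings.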

How the results depend on the processing

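Of 135 recomputed differences of single transport genes, 116 kept their direction where they were past 2-fold and their side of 2-fold, 19 moved from past 2-fold to within it, and 0 past 2-fold changed direction. With a pseudocount of 5 FPKM, the number of transport genes at least 2-fold higher went from 2, 5 and 5 on Days 0, 4 and 11 to 0, 3 and 3, where 2.51%, 9.33% and 9.28% of all genes were higher. With the median of genes of like length subtracted it went to 0, 2 and 3, where 11.5%, 20.2% and 20.1% of all genes were, so that 2 of 9 on Day 4 is near the share of all genes, and at 4-fold to 0, 0 and 0. Median centring took it from 5 to 4 on Days 4 and 11, where Atp12a came within 2-fold and 24.0% and 23.9% of all genes were higher. With column sums it stayed at 5 on both days, where 42.7% and 43.1% of all genes were higher. The number lower went from 2 to 1 at 4-fold on Day 0. It went from 1 to 0 on Days 4 and 11 with a pseudocount of 5, with division by column sums and at 4-fold. Of all genes, 13.6% were lower on each of these days with a pseudocount of 5. With column sums, 15.6% and 15.2% were. The share of all genes past 4-fold was not computed in either direction. With every gene above 0 FPKM as background, the share of genes lower went from 26.1% to 17.1% on Day 4 and from 25.7% to 16.8% on Day 11, and the share higher from 25.6% to 16.8% and from 26.1% to 17.1%. With at least 10 FPKM, the shares lower were 39.9% and 39.5%. The median of the related transport genes went from 0.22 to -0.088 on Day 0 and from 0.82 to 0.40 on Day 4 and 0.36 on Day 11 after subtraction for length, and to 1.52 and 1.48 on Days 4 and 11 with column sums. No paired analysis was possible because each genotype has 1 pooled value per day, and leaving out an animal could not be run for the same reason. The cause of these shifts was not tested.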
